A study of Mus musculus with 18 samples.

Results

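The comparison was between heterozygous Cops8 cardiac knockout (Het-CKO) and control (CTL) mouse hearts at 2 weeks of age. The members were chosen by their sample titles and comprised 3 CTL and 3 Het-CKO hearts, 6 of the 18 samples of the series. RNA from ventricular tissue was hybridised to 1-colour CodeLink whole mouse genome arrays, 1 array per heart. The other 12 arrays, Hom-CKO hearts at 2 weeks and all 3 genotypes at 3 weeks, entered the normalization and the estimate of the spread. All animals were FVB/N. CTL mice were Csn8flox/flox without the Cre transgene, and Het-CKO mice were Csn8flox/+ with Myh6-CreTG. Hom-CKO mice, Csn8flox/flox with Myh6-CreTG, were littermates of both. The Myh6 promoter drives Cre in cardiomyocytes, so Cops8 in the other cells of the ventricle was not targeted. The groups thus differed in the transgene and in the number and kind of Cops8 alleles at once, and the effects of Cre and of the allele cannot be told apart.

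Cops8 encodes CSN8, the smallest subunit of the COP9 signalosome. This complex takes NEDD8, a small ubiquitin-like tag, off the cullins of cullin-RING ligases, the ubiquitin ligases that recognise their targets through F-box, SOCS-box or BTB-Kelch substrate receptors. In a heterozygote 1 intact allele remains, and the study used Het-CKO hearts as the Cre-bearing reference for the Hom-CKO hearts.

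Levels are given relative to the median probe of an array, which reads 1. Values below 0.318 were raised to that floor, so values at 0.318 have no order among themselves. Het-CKO arrays were brighter before normalization. Their median raw intensities were 56.2, 51.8 and 57, against 38.5, 48.3 and 37.9 on the CTL arrays (ratio of means 1.32, exact permutation test, two-sided, p = 0.1, the smallest that 3 against 3 arrays allow). The bacterial RNA spikes read 205 ± 40.7 in Het-CKO and 196 ± 46.0 in CTL (SD, n = 3). CTL replicate 1 stood apart, with correlations of 0.985 to 0.988 to the other 5 arrays, which correlated at 0.991 to 0.997 among themselves. The methods state that both sexes were used in each group. Xist, the RNA of the inactive X chromosome, read 15.9 to 19.3 in all 6 hearts, and the Y-linked genes Ddx3y and Uty stood at the floor in all 6. By these genes no heart of either group read as male, which differs from that statement. Of heart muscle genes, the cardiac actin Actc1 was saturated at 587 to 625 and the oxygen store Mb read 555 to 625 in all 6 hearts. Not every cardiomyocyte marker was that bright, and Myh6 read far lower (values below).

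Cops8 itself did not pass the test. Its brighter probe read 31.5, 34.6 and 38.2 in the CTL hearts and 37.5, 34.2 and 34.8 in the Het-CKO hearts, and the groups overlapped. The log2 fold change was 0.03 ± 0.10 (SE) with an adjusted p of 0.923 from limma. The second probe had a log2 fold change of -0.17 and an adjusted p of 0.403. The position of both probes against the exons that Cre removes was not determined here, and a probe outside them would not check the genotype. Across the 9 signalosome genes measured, log2 fold changes ran from -0.21 for Cops2 to 0.03 for Cops8, with adjusted p between 0.516 and 0.953.

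Of 26576 probes tested, 436 (1.64%) passed an adjusted p of 0.05 in limma. Of these, 391 (1.47%) were higher in Het-CKO and 45 (0.169%) were lower. With each array scaled by its median instead of by quantiles, 203 probes passed, 159 higher and 44 lower, so the higher share was 78.3% in place of 89.7%. The groups did not overlap for any of the 391 higher or the 45 lower probes, and over all tested probes 12.2% were separated in the higher and 11.8% in the lower direction. The changes were small. Among the probes that passed, the median log2 fold change was 0.59 for those higher and -0.53 for those lower. A log2 change of at least 1 was reached by 17 higher probes (0.064%) and 2 lower probes (0.00753%). The higher probes lay at a median level of 2.51 and the lower ones at 0.784, against 1.82 over all tested probes. In 5 equal bins from the dimmest to the brightest, 49, 61, 116, 124 and 41 probes were higher and 21, 13, 10, 1 and 0 were lower. The count rested on the spread shared by the 18 arrays. Fitted on the 6 arrays alone with the same normalization, 1 probe passed, and the methods' t-test gave 8 after the same adjustment. The limma count of 436 fell to 109 without CTL replicate 1 and to 95 without CTL replicate 2. It fell to 219 without Het-CKO replicate 1, to 73 without Het-CKO replicate 2 and to 119 without Het-CKO replicate 3. It was 491 without CTL replicate 3 and 155 with the brightness of each array as a covariate.

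The largest rise was Ighv1-54, an immunoglobulin heavy chain variable segment. It read 0.318, 0.531 and 0.344 in CTL and 19.7, 28.4 and 20.9 in Het-CKO, a 58.6-fold difference with CTL replicate 1 taken at the floor (log2 5.87 ± 0.21 SE, adjusted p = 8.83e-10). Of the CTL arrays, 2 of 3 were above background, and with no floor the log2 fold change was 6.44. The 3 Hom-CKO hearts at 2 weeks averaged 33.8, and at 3 weeks the log2 fold change of Het-CKO vs CTL was 6.58. The platform lists this probe as matching multiple targets, and variable segments are near-identical to each other, so the segment measured is uncertain. It was the only 1 of 33 immunoglobulin and T-cell receptor segments tested that passed as higher.

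The 15 largest rises were taken among named genes that passed, were above background on all 3 Het-CKO arrays and did not overlap between the groups, and the 15 largest falls likewise by the CTL arrays. The other leading rises were between 2.03-fold and 2.73-fold. Calcr, the calcitonin receptor, read 1.38 and 1.95 in the CTL hearts measured (replicate 1 was missing) and 3.88, 4.53 and 5.09 in Het-CKO, with a log2 fold change of 1.45 ± 0.25 and an adjusted p of 0.0141. Ncam2, a neural cell adhesion molecule, read 2.66, 2.38 and 2.82 in CTL and 5.69, 7.46 and 7.24 in Het-CKO, a 2.58-fold rise (adjusted p = 0.00117). A second Ncam2 probe read 3.35 ± 0.478 in CTL and 3.70 ± 0.276 in Het-CKO, and did not pass (adjusted p = 0.558). Npm1, the nucleolar chaperone nucleophosmin, read 1.5, 1.52 and 1.83 in CTL against 3.43, 4.27 and 3.93, a 2.40-fold rise (adjusted p = 0.000875). A second Npm1 probe stood at the floor in both groups and was not tested.

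Rabep2, Kif12 and Coq8b were also among the leading rises. Rabep2, a rabaptin that binds Rab GTPases on endosomes, read 9.30, 9.97 and 12.8 in CTL and 25.2, 23.3 and 26.1 in Het-CKO (2.35-fold, adjusted p = 0.00318). Kif12, a kinesin motor, read 2.31, 2.14 and 2.52 in CTL and 4.80, 5.59 and 5.51 in Het-CKO (2.28-fold). Coq8b, which acts in coenzyme Q synthesis, read 1.88, 1.5 and 2.00 in CTL and 3.80, 3.36 and 4.16 in Het-CKO (2.11-fold). The second probe of Coq8b read 1.85 ± 0.075 in CTL and 1.76 ± 0.0892 in Het-CKO, with a log2 fold change of -0.07. Ccdc30, a coiled-coil protein, rose 2.08-fold at 1 probe, and its second probe had a log2 fold change of 0.21 that did not pass. Apc2, a relative of the Wnt pathway scaffold APC, Ppip5k1, an inositol phosphate kinase, the odorant receptor Olfr1 and the clone 2900005I04Rik had a CTL heart at the floor and levels of 0.775 to 1.42 in Het-CKO. The other tested Ppip5k1 probe read 0.792 ± 0.105 in CTL and 0.769 ± 0.0985 in Het-CKO, with a log2 fold change of -0.04. AA619741, Olfr632 and A430072C10Rik completed the 15. Of the 15, 9 passed in every fit that left out 1 array. The calls of Apc2 and 2900005I04Rik were lost without Het-CKO replicate 2 (adjusted p = 0.0558 and 0.0536) and that of Calcr without CTL replicate 2, Het-CKO replicate 2 or Het-CKO replicate 3 (adjusted p up to 0.121), Ppip5k1 kept its call in the fit without CTL replicate 3 alone, and Olfr1 and A430072C10Rik kept theirs in no such fit.

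**Figure D1:**
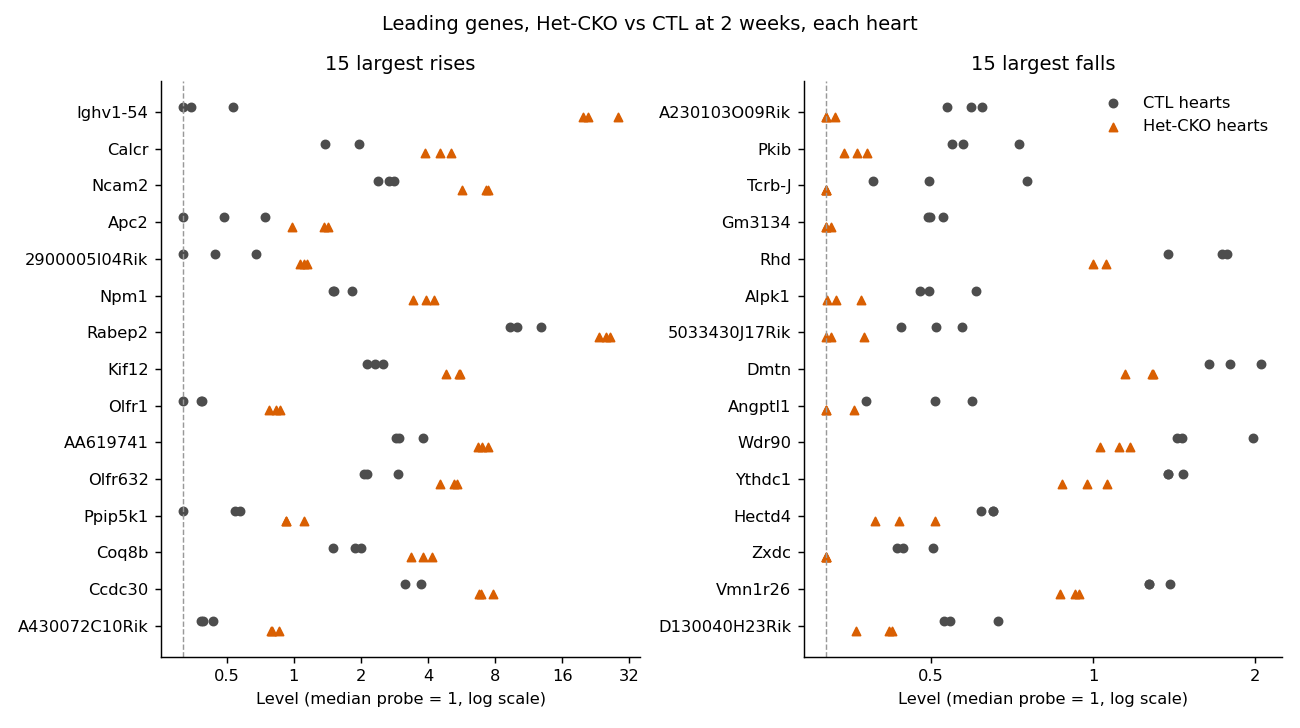
Level of each heart (median probe = 1, log scale, dashed line at the floor of 0.318) for the 15 largest rises and the 15 largest falls among named genes in Het-CKO vs CTL at 2 weeks. CTL hearts are grey circles and Het-CKO hearts orange triangles, which do not overlap for any gene shown, as the rule required, and most falls end at or near the floor.

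The falls were smaller than the rises, with log2 changes between -0.85 and -0.52 among the 15 largest that met the rule. A230103O09Rik read 0.622, 0.535 and 0.594 in CTL and 0.332, 0.318 and 0.318 in Het-CKO (adjusted p = 0.0142). Pkib, an inhibitor of protein kinase A, read 0.727, 0.574 and 0.546 against 0.345, 0.364 and 0.380 (adjusted p = 0.0313). In both, the Het-CKO hearts lay at or close to the floor. Ythdc1, a nuclear reader of methylated adenosine in RNA, read 1.37, 1.38 and 1.47 in CTL and 1.06, 0.876 and 0.972 in Het-CKO (1.45-fold lower, adjusted p = 0.0116). A second Ythdc1 probe read 8.70 ± 0.707 in CTL and 8.57 ± 0.509 in Het-CKO, which differed by less than the spread. Rhd and Dmtn are both known from the red cell membrane. Rhd, a Rh blood group antigen, read 1.77, 1.73 and 1.38 in CTL and 1.06 and 0.999 in the Het-CKO hearts measured (replicate 3 was missing). Dmtn, the actin-binding protein dematin, read 2.05, 1.64 and 1.79 in CTL and 1.29, 1.29 and 1.15 in Het-CKO. A brighter second Dmtn probe read 7.47 ± 0.225 in CTL and 6.64 ± 0.365 in Het-CKO. It did not pass in limma (log2 -0.17, adjusted p = 0.506). Rhd was the only 1 of 10 erythroid markers tested that passed. Of the 10, 5 had a positive log2 fold change, and the list's median was -0.0074. The call of Rhd was lost in limma after the centring within slide columns described below (adjusted p = 0.0530). Tcrb-J, Gm3134, Alpk1, 5033430J17Rik, Angptl1, Wdr90, Hectd4, Zxdc, Vmn1r26 and D130040H23Rik completed the 15. Of the 15 falls, Gm3134, 5033430J17Rik and Vmn1r26 passed in every fit that left out 1 array. In Het-CKO, Gm3134 read 0.318, 0.326 and 0.318 and 5033430J17Rik 0.376, 0.318 and 0.325, at or near the floor. Both lost their call with no floor, and Vmn1r26 lost it in limma with array brightness as a covariate (adjusted p = 0.113).

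The 2 falls past a log2 change of 1 lay outside the rule, because a CTL array was missing or not above background, and are named here after their values were seen. Tnni1, the slow skeletal troponin I that the heart expresses before and shortly after birth, read 2.24 and 5.77 in the CTL hearts measured and 1.3, 1.03 and 1.61 in Het-CKO. Its log2 fold change was -1.47 ± 0.33 with an adjusted p of 0.0367. The 2 CTL values lay farther apart than the group means, and over the fits without 1 array the adjusted p ran from 0.0142 to 0.279, with the call lost without CTL replicate 2 or any of the Het-CKO arrays. A2m, the protease inhibitor alpha-2-macroglobulin, had a log2 fold change of -1.42 ± 0.31 and an adjusted p of 0.0358, with 1.78 ± 0.583 in CTL and 0.655 ± 0.141 in Het-CKO.

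The place of a probe on the slide moved with these calls. The arrays hold 112 columns of spots, and each heart had a slide of its own. Slide numbers ran in the order CTL, Hom-CKO and Het-CKO, so genotype and slide order cannot be told apart. Columns 1 to 56 held 50.3% of the tested probes but 11% of the higher calls, 43 of 391. Columns 57 to 112 held the other 348. The falls lay the other way, with 34 of 45 in columns 1 to 56. In 7 blocks of 16 columns from the first to the last, 6, 11, 13, 27, 97, 171 and 66 probes were higher. The share of tested probes called higher ran from 0.159% in columns 1 to 16 to 4.64% in columns 81 to 96. The median level of the probes was similar in all blocks, between 1.7 and 1.9. Along the rows there was less difference, with 97, 81, 87, 70 and 56 higher calls in 5 blocks of 82 rows. Of the 15 largest rises 14 lay in columns 57 to 112, Ighv1-54 in column 50 being the exception, and of the 15 largest falls 13 lay in columns 1 to 56.

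The same slope was present across all tested probes of each array. The median deviation of columns 81 to 96 from the 18-array mean of each probe, minus that of columns 1 to 16, was 0.168, 0.169 and 0.142 on the log2 scale in the Het-CKO arrays. In the CTL arrays it was -0.00355, -0.0193 and -0.0536, so the groups did not overlap (difference 0.185, exact permutation test, two-sided, p = 0.1, the smallest possible). Hom-CKO arrays of the same age read -0.0367, 0.0631 and 0.177. At 3 weeks it was -0.118 ± 0.0250 in Het-CKO, opposite in sign to 2 weeks, and -0.0618 ± 0.0499 in CTL. When each array was centred within blocks of 7 columns, 196 probes passed, 173 higher and 23 lower, of which 184 were among the 436. Tested alone, columns 1 to 56 gave 15 calls, 10 higher and 5 lower, and columns 57 to 112 gave 578, 553 higher and 25 lower. The 15 were Ighv1-54, A230103O09Rik, Cux1, Vmn1r26, Lor, Rspo2, Akr7a5, Ythdc1, S100a14, Dr1, 5033430J17Rik, Gm3134, Gpr65 and 2 unnamed probes. Of the 15 largest rises, 13 passed after centring, the exceptions being Olfr1 (adjusted p = 0.0583) and A430072C10Rik (adjusted p = 0.0555), and 9 of the 15 largest falls passed. With brightness as a covariate 9 of the 15 rises and 3 of the 15 falls passed.

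**Figure D2:**
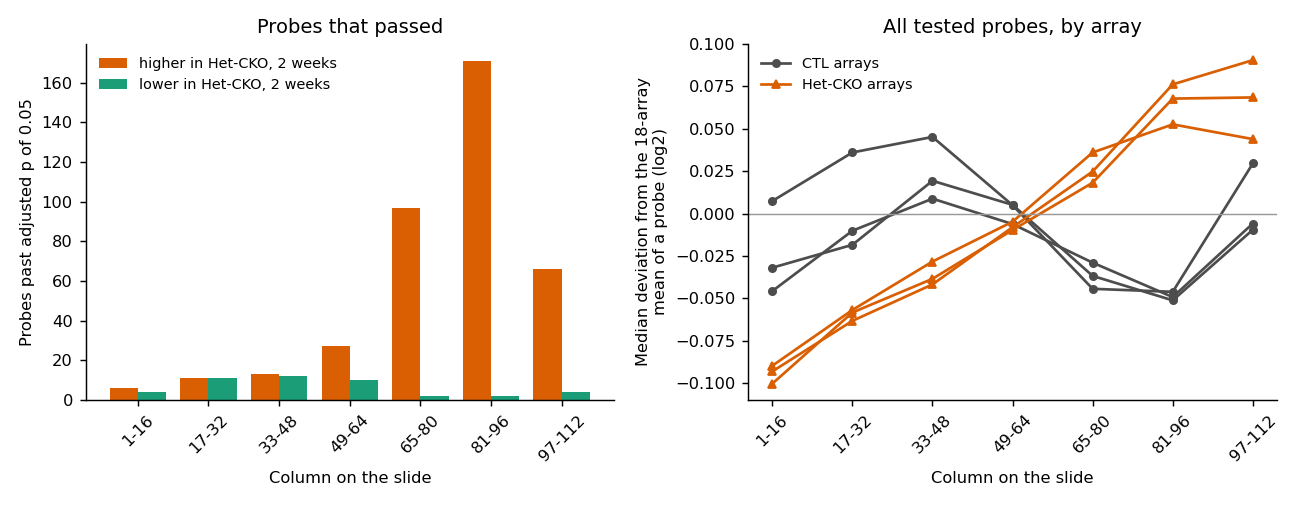
Left, number of probes past an adjusted p of 0.05 in each block of 16 slide columns, higher (orange) and lower (green) in Het-CKO at 2 weeks. Right, median log2 deviation of all tested probes in each block from the 18-array mean of each probe, 1 line per array, which climbs from the first to the last columns in the 3 Het-CKO arrays, whereas the 3 CTL arrays lie below them in columns 65 to 96.

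Other probes of the same genes served as a second reading. The 305 named higher probes stood for 305 genes, and the 39 named lower probes for 39, so that no gene passed at 2 probes. Of the 305, 120 genes had 209 further tested probes. None of the 209 passed in limma, 9 were higher at an unadjusted p under 0.05, and 91 (43.5%) had a positive log2 fold change. Among 10067 probes that did not pass, of all genes with several probes, 43.7% were positive, and the medians were -0.02 in both. Of the 24 further probes of 18 lower genes 18 (75.0%) were negative, against 56.3%, with a median of -0.11. Probes of a gene can match different transcripts.

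The same genotypes were compared in 6 other hearts at 3 weeks, which shared the fit and the normalization but no array with the 2-week groups. There 157 of 26593 probes (0.59%) passed, 67 (0.252%) higher and 90 (0.338%) lower. Sex differed between those groups, since Xist was not above the floor in 1 CTL heart or in any Het-CKO heart, and read 9.97 and 11.1 in the other two CTL hearts. Of the 391 probes higher at 2 weeks, 341 (87.2%) had a positive log2 fold change at 3 weeks, against 47.7% of all tested probes, and the median was 0.21. Of the 45 lower probes 31 (68.9%) were negative, against 51.5%, and the median was -0.13. Of the higher probes in columns 1 to 56, 41 of 43 (95.3%) kept their sign, and of those in columns 57 to 112, 300 of 348 (86.2%). Het-CKO arrays were the brighter ones at 3 weeks as well (35.0 ± 2.42 against 28.2 ± 2.46), and the part of brightness in the carried-over sign was not tested.

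At both ages 19 probes passed in the same direction, 16 higher and 3 lower, and 0 in opposite directions. The 11 named genes that were higher at both ages were Ighv1-54, Olfr632, AA619741, Rabep2, Grik5, Pi4kb, Gpr65, Asnsd1, Prr5, Lce1a2 and Alcam. Grik5, a kainate-type glutamate receptor subunit, read 5.38, 5.48 and 6.33 in CTL and 9.61, 10.5 and 11.6 in Het-CKO at 2 weeks (1.85-fold), and the log2 fold changes were 0.88 at 2 weeks and 0.74 at 3 weeks. Pi4kb, a Golgi phosphatidylinositol 4-kinase, read 14.0, 13.7 and 16.2 against 21.9, 24.3 and 27.5 at 2 weeks, with log2 fold changes of 0.75 and 0.72. A second Grik5 probe had log2 fold changes of 0.37 and -0.10, a second Pi4kb probe -0.19 and 0.24, and neither passed at either age. Gpr65, a proton-sensing receptor of leukocytes, read 15.6, 19.1 and 18.6 against 24.7, 25.7 and 25.8, with log2 fold changes of 0.52 and 0.48. Alcam, a cell adhesion molecule, read 30.8, 25.3 and 30.4 against 38.0, 38.4 and 39.3, with log2 fold changes of 0.42 and 0.48. The other tested Alcam probes had log2 fold changes of -0.11, -0.33, -0.46 and -0.38 at 2 weeks, and none of them passed. Asnsd1, a protein with an asparagine synthetase domain, read 20.3, 20.1 and 22.2 against 28.8, 32.9 and 29.2, with log2 fold changes of 0.54 and 0.48, while a second Asnsd1 probe had a log2 fold change of -0.09 at 2 weeks and did not pass. Of these, Gpr65 and Alcam lay in columns 23 and 18, outside the region where most rises lay. When columns 1 to 56 were tested alone in limma, Gpr65 kept its 2-week call (adjusted p = 0.0489) and Alcam lost it (adjusted p = 0.105). Of the 11, Ighv1-54, Olfr632, AA619741, Rabep2, Grik5 and Pi4kb kept their 2-week call in every fit that left out 1 array. Alcam lost it when any array but CTL replicate 3 was left out. Gpr65 lost it without CTL replicate 1, Het-CKO replicate 2 or Het-CKO replicate 3, and Asnsd1 without CTL replicate 1, CTL replicate 2 or Het-CKO replicate 2. Prr5 and Lce1a2 kept it in the fits without CTL replicate 3 or Het-CKO replicate 1 alone, and also lost it after centring within slide columns (adjusted p = 0.117 and 0.0854). The genes lower at both ages were Ythdc1, Sphk1, a sphingosine kinase, and Tcrb-J. Sphk1 read 0.511, 0.480 and 0.475 in CTL and 0.319, 0.334 and 0.380 in Het-CKO. The 2-week call of Ythdc1 was lost without Het-CKO replicate 2. Tcrb-J kept its call in the fit without CTL replicate 3 alone and Sphk1 in those without CTL replicate 3 or Het-CKO replicate 3, and both lost it after centring (adjusted p = 0.0753 and 0.0513).

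**Figure D3:**
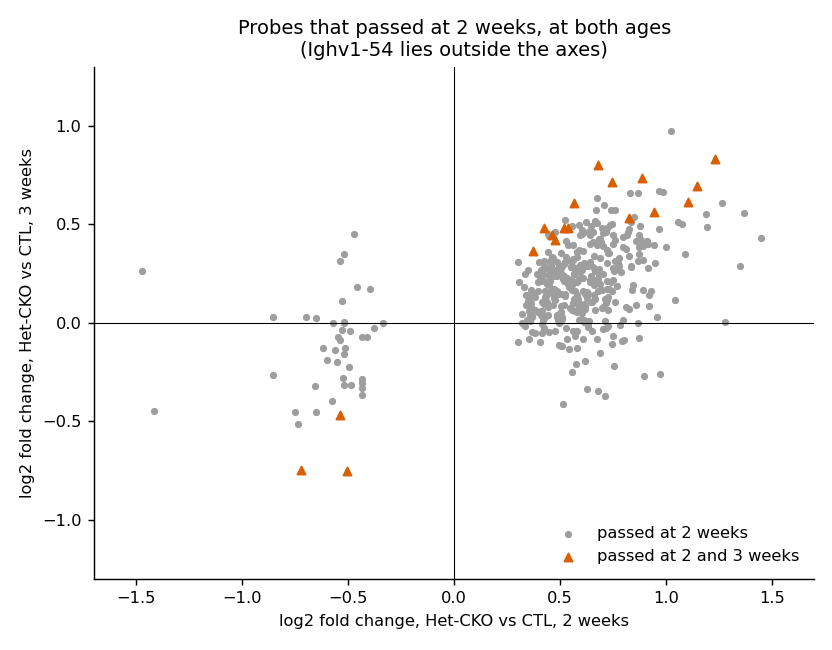
Log2 fold change of Het-CKO vs CTL at 2 weeks (x axis) and at 3 weeks (y axis) for each of the 436 probes that passed at 2 weeks, with Ighv1-54 outside the axes. Orange triangles mark those that also passed at 3 weeks, and 341 of the 391 higher probes lie above 0 on the y axis.

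The 47 gene lists, each gene at its brightest probe, held 30 called members, 25 higher and 5 lower, and over all 16622 genes 279 (1.68%) passed, 252 (1.52%) higher and 27 (0.162%) lower. On the lists of cullin-RING ligase, proteasome and autophagy genes 1 gene passed, and ubiquitin ligases of other kinds were not counted. Fbxw8, the F-box partner of CUL7, read 4.12, 3.73 and 4.25 in CTL and 5.08, 4.91 and 5.06 in Het-CKO (1.25-fold, adjusted p = 0.0494), 1 of 50 F-box receptors. Its second probe had a log2 fold change of -0.03, and the call was lost when any array but CTL replicate 3 was left out. None of 21 cullin, neddylation and core genes, 29 SOCS-box receptors, 45 BTB-Kelch receptors, 38 proteasome subunits or 41 autophagy genes passed in limma.

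Of the heart's own programs, the fetal list had 1 call of 10, the fall of Tnni1 described above. The natriuretic peptide Nppa read 7.18, 14.8 and 6.73 in CTL and 6.66, 4.80 and 16.4 in Het-CKO, with hearts of both groups at both ends. Nppb read 74.5, 73.3 and 61.8 in CTL and 59.4, 54.1 and 50.8 in Het-CKO, which were separated but did not pass (log2 -0.35, adjusted p = 0.514). The skeletal actin Acta1 read 22.5, 26 and 54.3 in CTL and 50.2, 51.0 and 58.4 in Het-CKO, and the overlap came from CTL replicate 3 (adjusted p = 0.311). Myh6, whose promoter drives the transgene, read 2.51, 5.01 and 3.72 in CTL and 5.89, 4.95 and 5.72 in Het-CKO (adjusted p = 0.231). None of 22 adult sarcomere, 18 calcium handling, 27 ion channel and junction, 27 fatty acid oxidation, 29 glycolysis, 47 oxidative phosphorylation or 14 ATP synthase genes passed. The median log2 fold changes of the sarcomere list, 0.13, and of fatty acid oxidation, 0.08, changed sign to -0.18 and -0.26 when arrays were scaled by their medians, which moved the median of all probes from -0.02 to -0.10. Without CTL replicate 1 they were 0.05 and -0.05, and the ion channel and junction median went from 0.14 to -0.02.

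Lists of stress and growth had 1 call. Ifi35, an interferon-induced protein, read 5.01, 4.07 and 4.76 in CTL and 3.34, 3.66 and 2.72 in Het-CKO (1.43-fold lower, adjusted p = 0.0491), and the call was lost when any 1 of the 6 arrays was left out. The 26 interferon response genes had a median log2 fold change of -0.30, with 3 of 26 above 0. The median was -0.13 without CTL replicate 1 and -0.01 with brightness as a covariate. None of 24 p53, 28 NRF2, 28 chaperone, 18 integrated stress response, 22 immediate early, 31 fibrosis, 32 cell cycle, 42 microtubule, 45 vesicle trafficking, 38 histone and chromatin or 73 ribosomal protein genes passed. The immediate early median of 0.17 was -0.04 without CTL replicate 1.

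The medians of several marker lists of other cells moved when CTL replicate 1 was left out. None of 23 macrophage and myeloid markers passed, and their median was -0.26, with summed levels of 116 to 214 in CTL and 115 to 132 in Het-CKO. The complement gene C1qa read 27.2 in CTL replicate 1 against 15.7 and 16.8 in the other CTL hearts and 14.0, 15.8 and 15.1 in Het-CKO. Lysozyme, Lyz2, read 34.6 there against 20.2 and 22.3 in CTL and 19.7, 23.4 and 19.3 in Het-CKO. Without CTL replicate 1 the macrophage median was -0.01, the fibroblast median went from -0.13 to -0.02 and the mesothelial median from -0.27 to -0.10. The endothelial median went from -0.02 to -0.08, the lymphocyte median from 0.12 to 0.19 and the smooth muscle median from 0.10 to -0.04. With brightness as a covariate the macrophage median was 0.04, the fibroblast median -0.12 and the mesothelial median -0.09. In tissue RNA, fewer cells of a type and less RNA per cell cannot be told apart. None of 15 cardiomyocyte, 14 atrial and conduction, 18 fibroblast, 20 endothelial, 15 smooth muscle and pericyte, 17 lymphocyte, 12 skeletal muscle, 8 adipocyte, 9 mesothelial, 6 thymus and lung or 7 sex-linked genes passed. Of 23 neuron and Schwann cell markers, 3 were higher, Ncam2, Calcr and Apc2, which had been put on the list with their rise known. None of the other 20, which include the noradrenaline enzymes Th and Dbh, passed in limma, and the list's median was -0.03.

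Most of the 30 called list members lay in sensory, barrier, immune and crystallin gene families. Of 329 odorant receptors tested, 14 were higher (4.26%) and 0 lower, and the median log2 fold change was 0.14. Examples were Olfr632, with 2.14, 2.06 and 2.93 in CTL and 4.52, 5.24 and 5.41 in Het-CKO, and Olfr514, with 2.36, 2.06 and 2.52 against 3.58, 4.12 and 4.75. Of the 171 odorant receptors in columns 1 to 56, 1 was higher and the median was 0.05, and of the 158 in columns 57 to 112, 13 were higher and the median was 0.26. Over all genes the 2 regions had 24 of 8378 and 228 of 8244 higher. The median of the odorant receptors was above 0 under each scaling tried, between 0.12 with median scaling and 0.25 with cyclic loess. The array held 504 odorant receptors, and the 329 tested exceeded background on every array of some group. Fewer probes lay near background in Het-CKO (22.2% ± 0.755) than in CTL (27.7% ± 2.08), so dim probes could enter through Het-CKO alone. Among probes above background on all 6 arrays, 16 list members in place of 30 were called, and odorant receptors were not counted apart. Of 52 keratins and keratin-associated proteins, Krt34, Krtap4-13 and Krt9 were higher, and all 3 lay in columns 57 to 112. Of 55 vomeronasal and taste receptors Tas2r119 was higher and Vmn1r26 lower, of 33 immunoglobulin and T-cell receptor segments Ighv1-54 was higher and Tcrb-J lower, and 1 of 16 defensins, Defa31, and 1 of 8 crystallins, Crybg1, were higher. Crybg1, a protein with crystallin-like domains, read 3.47, 3.26 and 3.31 in CTL and 4.90, 4.61 and 4.81 in Het-CKO (1.43-fold, adjusted p = 0.00551), and it passed in every fit that left out 1 array. Members of these families are alike in sequence, so a probe may read more than 1 of them.

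**Figure D4:**
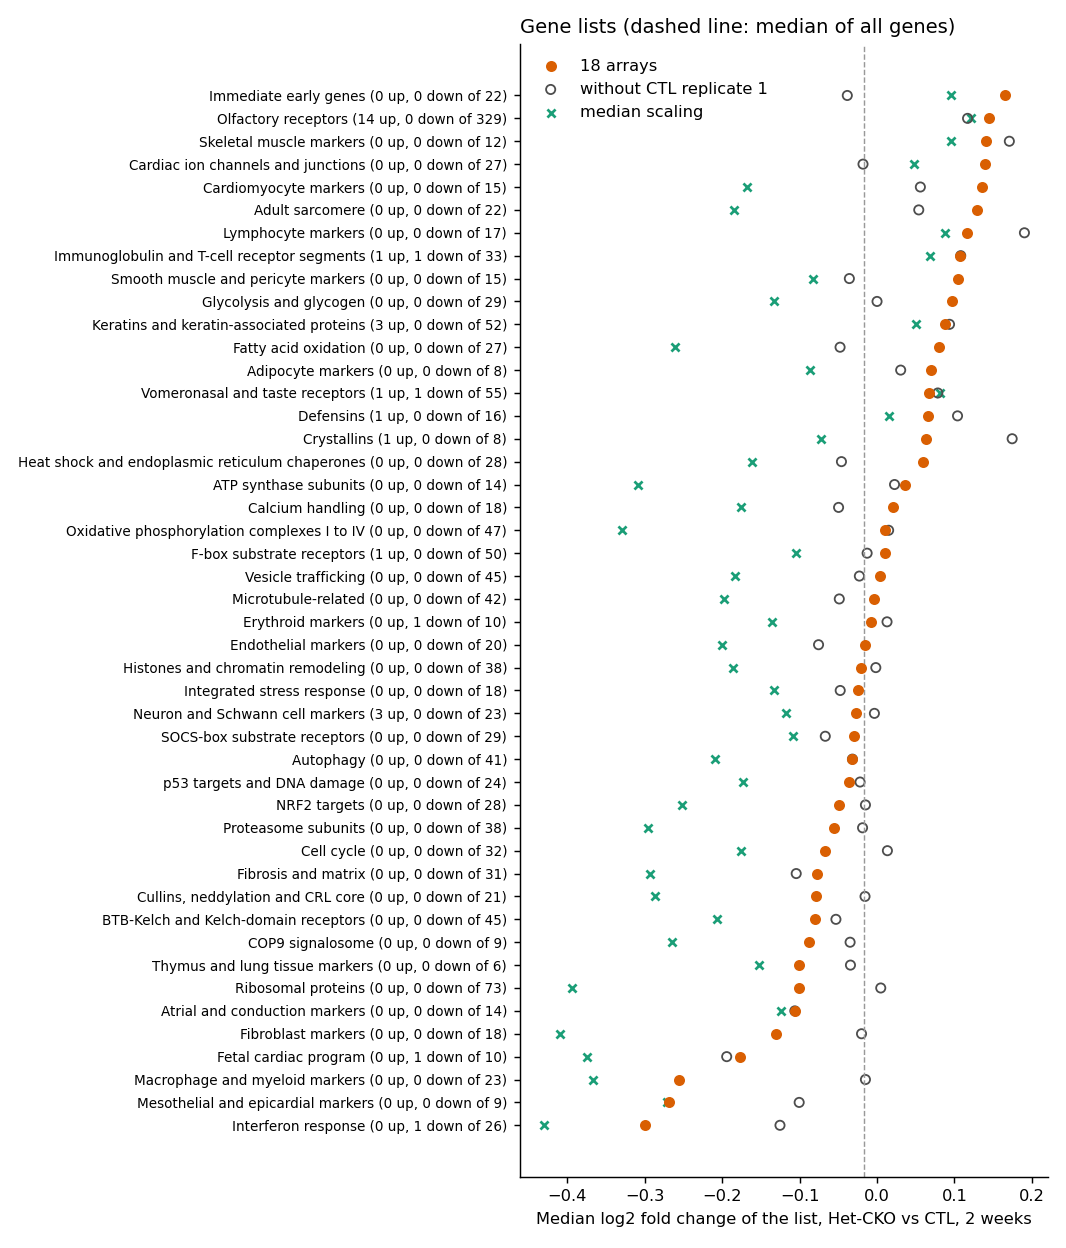
Median log2 fold change of each gene list in Het-CKO vs CTL at 2 weeks, with the number of genes higher, lower and tested beside its name, from the 18-array fit (filled), without CTL replicate 1 (open) and with median scaling (crosses). The dashed line is the median of all genes at -0.02, and the macrophage, interferon and mesothelial medians move toward it when CTL replicate 1 is left out.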

How the data were processed

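The values are raw spot intensities, which the authors deposited as made by the scanner software, per the file headers by subtracting the median local background from the mean pixel value of a spot. Spots flagged as contaminated, irregular or masked were left out (1.80% to 2.57% of the 34967 discovery probes per array). The 18 arrays were quantile normalized in limma 3.58.1 (R 4.3.3), divided by the median probe, raised to the 1st percentile of probes above background (0.318) and put on the log2 scale. The 26606 probes that exceeded background on every array of some group entered lmFit and eBayes with 6 group means (12 residual degrees of freedom), with Benjamini-Hochberg adjustment at 0.05. The fit was tested on simulated data. No genome build was used. Labels name separate animals as replicates.

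Named genes are the signalosome subunits, the 15 largest rises and falls that passed, were above background in the higher group and did not overlap, genes called at both ages, up to 4 called members of each list or otherwise the 2 brightest, fixed genes of the study, and genes whose change differed between ages. The samples, lists and rule were chosen with earlier results of these data known. The alternatives by slide column and 1 floor were chosen after seeing the data. The number of arrays limits the precision.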

Additional observations from a re-analysis of the deposited data

Results flagged for a closer look

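For 2 of 26563 probes (0.00753%) the Het-CKO vs CTL difference itself differed between 3 and 2 weeks in limma, and 2473 did so at an unadjusted p under 0.05. Pbx3, a homeobox transcription factor, stood at the floor in all 3 CTL hearts at 2 weeks, where no array was above background. It read 0.537, 0.561 and 0.558 in Het-CKO, at least 1.73-fold higher with CTL taken at the floor. Under the alternative processing its 2-week log2 fold change ran from 0.20 to 1.16. At 3 weeks no array of either genotype was above background and the log2 fold change was 0.01, so the difference between ages of -0.78 on the log2 scale rested on values at or next to the floor. The 2-week call was lost with no floor (adjusted p = 0.267) and with the floor at the 1st percentile of all probes (adjusted p = 0.268). A brighter Pbx3 probe had a log2 fold change of -0.16 at 2 weeks and did not pass.

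Uts2r, the receptor of the vasoactive peptide urotensin, read 0.700, 0.688 and 0.775 in CTL and 1.10, 1.26 and 1.18 in Het-CKO at 2 weeks (log2 0.71). At 3 weeks it read 1.11, 1.21 and 1.20 in CTL and 0.947, 0.793 and 0.982 in Het-CKO (log2 -0.37, adjusted p = 0.0825), a difference between ages of -1.08. Both probes lay in slide columns 57 to 112, and the 2 ages were scanned as separate sets. Xist was read in every CTL and Het-CKO heart at 2 weeks and in no Het-CKO heart at 3 weeks. Age and sex thus cannot be told apart in this contrast.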

How the results depend on the processing

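For Het-CKO vs CTL at 2 weeks the number of probes that passed was 203 with median scaling, 1137 with cyclic loess, 178 with the 9 arrays of that age normalized and fitted alone and 83 with the 6 arrays normalized and fitted alone. It was 273 with no floor, 276 with the floor at the 1st percentile of all probes, 155 with brightness as a covariate, 1563 with array weights, 196 centred within slide columns and 15 for columns 1 to 56 alone. With the normalization over 18 arrays kept, the 9 arrays alone gave 17 and the 6 arrays alone 1, and the methods' t-test gave 8. Leaving out 1 array gave 73 to 491. Among the genes chosen by the naming rule, none that passed changed sign under any alternative run, whereas the medians of several gene lists did. The cause of the changes in counts and medians was not tested. Fits of 6 or 9 arrays also have fewer arrays for the spread. Same-numbered CTL and Het-CKO arrays deviated together with r of -0.0523, -0.0403 and 0.0519 at 2 weeks, so the numbers were not taken as pairs. With the replicate number as a block 265 probes passed at 2 weeks, 31 at 3 weeks, 0 differed between ages and 6 passed at both ages.

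At 3 weeks the count of 157 became 1860 with median scaling, 88 with cyclic loess, 1326 from the series value table, 236 with flagged spots kept, 85 with no floor, 299 with the floor at the 5th percentile, 77 with the floor at the 1st percentile of all probes, 1 with brightness as a covariate, 1 by the methods' t-test, 104 with trend and robust moderation, 11 with array weights and 21 to 793 without 1 array. Probes that differed between ages numbered 10 with cyclic loess, 0 with normexp, 5 with no filter, 1 above background on all arrays, 4 with the floor at the 5th percentile and 0 with trend and robust moderation. The 19 probes called at both ages became 29 with median scaling, 31 with normexp, 45 from the series value table, 31 with flagged spots kept, 9 with no floor or the floor at the 1st percentile of all probes, 40 with the floor at the 5th percentile, 1 with brightness as a covariate, 0 by the methods' t-test, 3 with array weights and 3 to 44 without 1 array. The 30 called list members became 14 with median scaling, 87 with cyclic loess or array weights, 15 and 11 with the 9 or 6 arrays normalized and fitted alone, 16 above background on all arrays, 19 with no floor, 1 and 2 with the 6 or 9 arrays fitted in the joint normalization, 12 with brightness as a covariate, 0 by the methods' t-test, 13 centred within slide columns and 8 to 32 without 1 array. Signal over background limits the dim probes most, and 40.5% of the probes in the dimmest of 5 bins were above background on all 6 arrays.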
